A study of Mus musculus with 54 samples.

Results

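Expression of 10 genes of interleukin-6 (IL-6) family signaling was followed in the wall of ex vivo grown mouse follicles: the ligands Il6, Il11 and Lif, the receptors Il6st, Osmr, Il11ra1 and Lifr, the kinase Jak1, the transcription factor Stat3 and its feedback inhibitor Socs3. The 10 genes were chosen by their symbols, with earlier results of these data known. All 10 were present among the 25149 genes of the count and TPM tables. The question was how each gene differed between the side of the follicle wall that ruptures and the side that does not, and between medium with and without human chorionic gonadotropin (hCG).

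IL-6 family cytokines bind a ligand-specific receptor that pairs with the shared subunit gp130, encoded by Il6st. The receptor-bound Janus kinases, JAK1 foremost, then phosphorylate STAT3, which enters the nucleus and switches on target genes, Socs3 among them, whose product shuts the signal off. In the ovary, Il6 is known as a gene that cumulus and granulosa cells induce in response to the ovulatory surge of luteinizing hormone, and this family is known for acute-phase, inflammatory and tissue remodeling responses in many organs.

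Follicles came from CD-1 mice aged 14 to 16 days, grew encapsulated in alginate until day 8, and then spent 12 h in maturation medium that contained FBS, EGF and FSH in both arms and hCG, an analog of luteinizing hormone, in only one. The 54 bulk Smart-Seq2 libraries, each made from 1 microdissected follicle side, fell into 4 groups. Without hCG there were 15 putative unruptured and 14 putative ruptured sides, and post-hCG 12 unruptured and 13 ruptured sides. The sides without hCG are putative because those follicles had not ruptured and were divided by the shape that predicts the rupture site. Labels name the tissue as a complex of cumulus and oocyte, whereas the study states that these complexes were removed. The model has neither vessels nor circulating leukocytes, and its theca layer, much of which is lost when follicles are isolated with enzymes, regrows in culture. Which 2 sides came from 1 follicle, and how many mice contributed, is not given in the sources used here, so p-values measure the spread between follicle sides. A letter in the library label, which may mark a plate row, was B, C or D in the libraries with hCG and F, G or H in those without, so medium and letter cannot be told apart. Only G without hCG and C post-hCG held both sides.

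Total estimated counts ran from 1497138 to 2834794 per library (median 2157135). Granulosa markers had the highest summed level of the marker lists in all 4 groups, at 4130, 14365, 1579 and 1325 TPM (medians for the putative unruptured, putative ruptured, unruptured and ruptured sides, in that order throughout). Inha alone had means of 2860, 8784, 1357 and 1072 TPM, while Amh was listed at 0 in every putative ruptured and ruptured library. Such sums do not give shares of cells. Summed theca marker levels had medians of 538, 95.7, 482 and 303 TPM, and of 536, 42.3, 350 and 6.78 TPM without Lhcgr, the luteinizing hormone receptor, which is 1 of these markers. Oocyte markers summed to a median of at most 0.2 TPM in every group, but reached 152 TPM in putative unruptured replicate 1 and 24.7 TPM in putative ruptured replicate 12. The hCG treatment itself was visible in 12 genes known to respond to luteinizing hormone, whose summed level had medians of 80.0, 66.2, 926 and 983 TPM. Of these, 9 of 9 tested rose with hCG on the unruptured and 5 of 8 on the ruptured side, where 25.4% and 29.7% of all genes tested rose, and none of those tested fell. Has2, which makes hyaluronan, was under the expression filter for hCG, and in a fit without the filter fell by a log2FC of -1.32 (FDR = 0.00848, edgeR) and -4.87 (FDR = 1.88e-11, edgeR).

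The intracellular genes had the highest mean levels of the set in all 4 groups, on the per-length TPM scale that permits genes to be compared. Without hCG, Stat3 and Jak1 led on both sides with mean levels between 5.77 and 5.93 log2(TPM + 1), and did not differ from each other beyond the SD between libraries. Socs3 ranked next in all 4 groups. It stood above Il6st on the putative ruptured side, and below Jak1 on the unruptured side post-hCG, by less than their spread. The receptors followed, led by Il6st except on the unruptured side post-hCG, where Osmr stood above it by less than their spread. The 3 ligands were last in both groups without hCG, where neighbours among them did not differ beyond their SD. Post-hCG, Il6 moved up to the sixth place on the unruptured and the fifth on the ruptured side, above Lifr and Il11ra1 on both. It stood above Lifr on the unruptured side, and above Osmr on the ruptured side, by less than their spread. The TPM of Lifr and Il11ra1 did not follow the counts in every library, as given below.

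**Figure D1:**
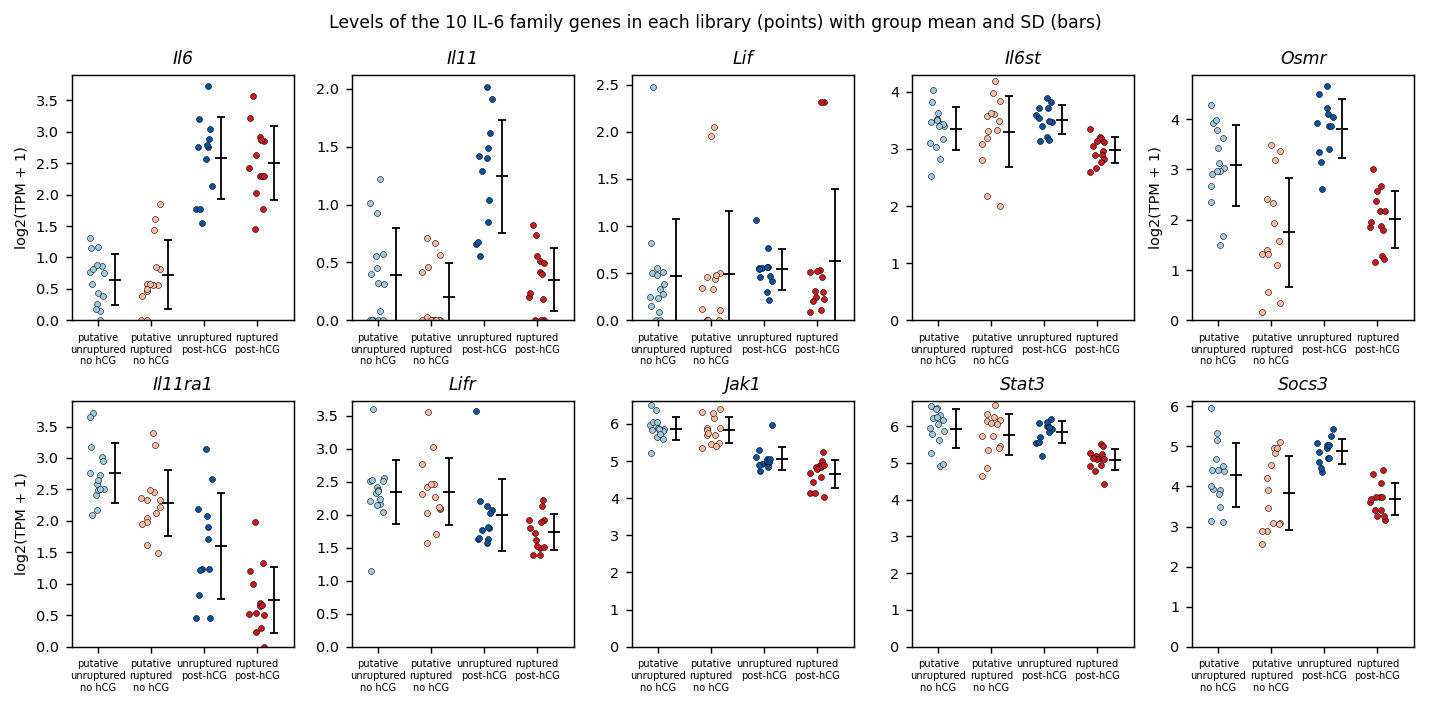
Level of each of the 10 genes in log2(TPM + 1) (vertical axis) in every library (points) of the 4 groups (horizontal axis), with the group mean and SD as a bar beside the points. Il6 rises with hCG on both sides, Il11 stands out on the unruptured side post-hCG, Osmr and Socs3 are lower on the ruptured than on the unruptured side post-hCG, and Il11ra1 and Jak1 fall with hCG.

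Il6, the founding ligand of the family (chr5:30013114-30019981, + strand, GRCm38), rose strongly with hCG on both sides of the follicle. Without hCG it lay between 0 and 1.47 TPM (median 0.69) on the putative unruptured side and between 0 and 2.62 TPM (median 0.48) on the putative ruptured one. Post-hCG it lay between 1.94 and 12.2 TPM (median 5.75) on the unruptured side and between 1.73 and 10.8 TPM (median 4.34) on the ruptured side. In TPM, all 12 unruptured libraries post-hCG exceeded every putative unruptured library, and 11 of 13 ruptured libraries exceeded every putative ruptured one. In CPM, the count scaled to the library total, 11 of 12 and 12 of 13 did so. The share of all genes that separate so fully was not counted, here or for the genes below. The levels of Il6 rest on few reads, with at most 4 estimated counts per library without hCG and 2 to 27 post-hCG. The gene fell under the expression filter in both comparisons of the media.

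Fitted without that filter, the log2FC of Il6 for hCG was 3.25 on the unruptured side (SE 0.34, FDR = 5.51e-10, edgeR). FDR throughout is the Benjamini-Hochberg adjusted p of a quasi-likelihood test in edgeR, and log2FC a difference in log2 counts scaled by library. The ruptured side gave 3.22 (SE 0.32, FDR = 6.75e-11, edgeR). Of all genes in that unfiltered fit, 13.6% were called higher post-hCG on the unruptured and 15.9% on the ruptured side. The hCG effects on both sides differed by -0.04 in log2FC (95% interval -0.98 to 0.90, FDR = 0.975, edgeR), an interval that reaches nearly 1 in either direction. Between the sides post-hCG the log2FC (ruptured minus unruptured) was 0.01 (95% interval -0.55 to 0.56, FDR = 0.989, edgeR). Among the libraries with the letter C, however, Il6 was lower on the ruptured side by a log2FC of -1.04 (SE 0.27, FDR = 0.0214, edgeR, 4 against 5 libraries), with 6.41 to 12.2 TPM on the unruptured and 2.40 to 6.54 TPM on the ruptured side. The unruptured libraries with the letter B lay between 1.94 and 5.93 TPM, so that the sides' order for Il6 depended on the letters compared.

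Il11, a ligand known for its part in decidualization of the uterus (chr7:4772373-4782859, - strand), was highest on the unruptured side post-hCG. It lay between 0.47 and 3.05 TPM (median 1.54) there, with estimated counts in all 12 libraries. The ruptured side post-hCG ranged from 0 to 0.77 TPM (median 0.32). Without hCG, Il11 reached 1.33 TPM on the putative unruptured side (median 0.25) and 0.64 TPM on the putative ruptured side, where 8 of 14 libraries listed it at 0. All 13 ruptured libraries lay below the unruptured median post-hCG, and 10 of them below the lowest unruptured library in TPM (5 of 13 in CPM).

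The counts of Il11 were small as well, summing to 83.44 in the 12 unruptured and 19.12 in the 13 ruptured libraries post-hCG. In the fit without the filter, the log2FC between the sides was -1.99 (SE 0.40, FDR = 0.000367, edgeR) post-hCG, where 6.34% of all genes were called higher on the unruptured side. The difference of the media was 2.06 (SE 0.43, FDR = 0.000256, edgeR) on the unruptured side and 0.64 (SE 0.57, FDR = 0.389, edgeR) on the ruptured side. The test of that contrast itself did not pass, with a log2FC of -1.41 (SE 0.81, FDR = 0.432, edgeR), so a different response of the 2 sides was not shown at this depth.

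Lif, a ligand that signals through Lifr and gp130 (chr11:4257557-4272514, + strand), showed no difference that passed the test in any comparison. Estimated counts ranged from 0 to 12 (median 4) and from 0 to 5 (median 3) without hCG, and from 2 to 12 (median 5) and from 1 to 7 (median 3) post-hCG. The 4 groups overlapped. The fitted log2FC without the filter was 0.72 for hCG on both sides, with an FDR of 0.141 on the unruptured and 0.191 on the ruptured side (edgeR).

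**Figure D2:**
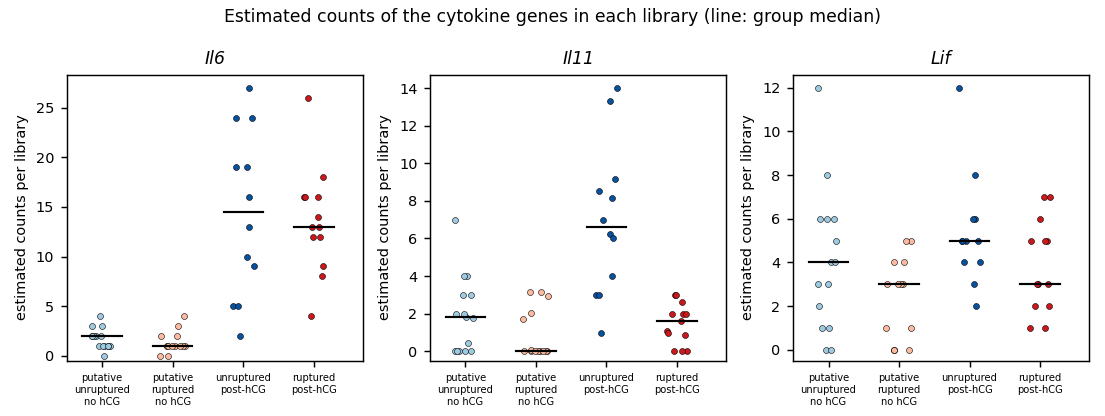
Estimated counts per library (vertical axis) of Il6, Il11 and Lif in the 4 groups (horizontal axis), 1 point per library with the group median as a line. Il6 stays at or below 4 counts without hCG, Il11 exceeds 7 counts only on the unruptured side post-hCG, and the ranges of Lif overlap.

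The TPM values of Lif did not follow its counts in every library. In 48 libraries with a count, the ratio of TPM to CPM (the count scaled to the library total) had a median of 0.167. It was 1.24 to 6.87 in 5 of them and at most 0.197 in the other 43. The 5 libraries were putative unruptured replicate 2, putative ruptured replicates 3 and 12, and ruptured replicates 6 and 12, spread over 4 letters and 3 groups. Putative unruptured replicate 2 carried the highest Lif level of all, 4.56 TPM, from 1 estimated count. A ratio over 5 times the median was also seen in 2 libraries for Il11ra1 and in 1 for Lifr, and in none for the other 7 genes. TPM divides a count by a transcript length, and the lengths used are not given in the sources used here. Differences of Lif, Il11ra1 and Lifr are therefore given from counts.

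**Figure D3:**
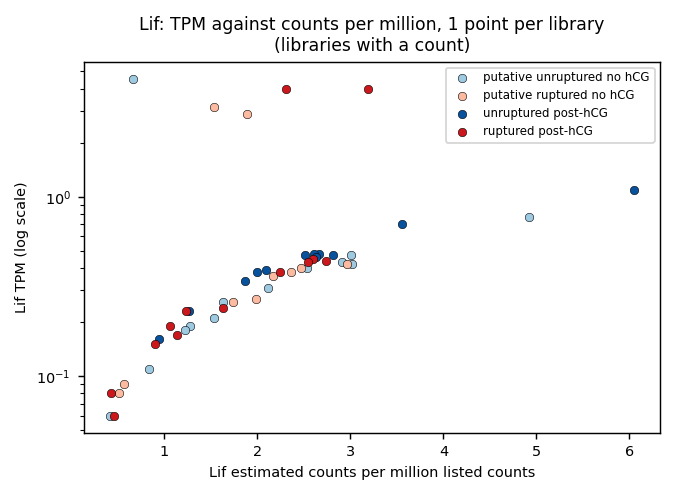
Level of Lif in TPM (vertical axis, log scale) against CPM, its estimated count scaled to the library total (horizontal axis), 1 point per library with a count, coloured by group. Most libraries follow 1 line, and 5 libraries from 3 groups sit above it at 2.88 to 4.56 TPM.

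A short motif was found in the promoters of the 3 ligands among the members. Promoter windows (250 bases before to 50 after the RefSeq start, GRCm38.p6) were found for all 10 genes, 13 windows in all, and were searched on both strands for the AP-1 site TGANTCA, the STAT site TTCNNNGAA and the cyclic AMP response element TGACGTCA, each of which reads the same on the opposite strand. An AP-1 site stood in 4 of the 13 windows against 7.81% of 32851 windows of all genes, and the 4 genes were the 3 ligands and Osmr. Over all listed genes of the pathway, members included, it stood in 6 of 60 windows. The others with a site were Cntf, a further ligand, and Fgl2. They are printed because these genes include the ligands that rose with hCG and the receptor that differed between the sides, with the site in capitals:
Il6, chr5:30012864-30012880, + strand, 249 bases before the start: cTGAGTCActtttaaag
Il11, chr7:4778224-4778248, - strand, 98 bases before the start: gagggagggTGAGTCAggatgtgtc
Lif, chr11:4257331-4257355, + strand, 228 bases before the start: agtcagctgTGACTCAggccatagt
Osmr, chr15:6874295-6874319, - strand, 3 bases after the start: ccccgtagtTGATTCAtagctgggg
The pattern searched allows any middle base, which is G in Il6 and Il11, C in Lif and T in Osmr. The site of Il6 lies at the edge of its window. These matches describe letters and not binding, which was not measured.

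Osmr, the receptor of oncostatin M that pairs with gp130 (chr15:6813577-6874969, - strand), had the largest difference between the sides among the members past the filter. Il11, which was fitted without the filter, stood close to it post-hCG, at -1.99. Post-hCG Osmr lay between 5.13 and 24.3 TPM (median 13.8) on the unruptured and between 1.25 and 7.00 TPM (median 2.89) on the ruptured side. Every ruptured library fell below the unruptured median, and 11 of 13 fell below the lowest unruptured library. The difference was 4.17-fold, with a log2FC of -2.06 (SE 0.21, FDR = 2.14e-08, edgeR), and 21.4% of all tested genes were called between these sides.

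Without hCG, Osmr already differed in the same direction. It lay between 1.84 and 18.5 TPM (median 7.16) on the putative unruptured and between 0.12 and 10.2 TPM (median 1.81) on the putative ruptured side, with 7 of 14 libraries below the lowest putative unruptured one. The log2FC was -1.42 (SE 0.39, FDR = 0.00926, edgeR), in a comparison that called 17.8% of the genes tested. Osmr was the only 1 of 7 members tested to pass there. Among the libraries with the letter G (5 against 5) the log2FC was -0.32 (SE 0.61, FDR = 0.906, edgeR), with 1.84 to 14.9 TPM against 1.64 to 9.25 TPM. That comparison called 3 of 9068 genes and none of the 7 members tested, 1 of which had an unadjusted p under 0.05. Post-hCG, the libraries with the letter C gave a log2FC for Osmr of -2.30 (SE 0.22, FDR = 6.00e-06, edgeR).

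Markers of several cell types moved with this receptor. Summed theca marker levels ranged from 42.7 to 2797 TPM on the putative unruptured and from 21.1 to 583 TPM on the putative ruptured side, and from 317 to 1467 TPM and from 133 to 477 TPM post-hCG. Without Lhcgr the ranges post-hCG were 77.3 to 1338 TPM and 3.27 to 54.7 TPM, and Lhcgr alone made up 129 to 470 TPM in the ruptured libraries. Of 12 theca markers, 6 of the 10 tested were lower on the putative ruptured side and none was higher, while post-hCG 5 of 7 were lower and 1, Lhcgr, was higher (log2FC 1.28, FDR = 0.000410, edgeR), and Cyp17a1 was listed at 0 in every ruptured library. Summed levels of 7 immune markers had medians of 30.8, 0.63, 12.7 and 0.75 TPM, carried by at most 1 gene with a mean above 1 TPM. Of the granulosa markers, 7 of 9 tested were higher on the putative ruptured side, and post-hCG 2 of 6 were higher and 1 lower on the ruptured side. The part of these cells in the difference was not tested, and in bulk samples fewer cells of a type and less RNA per cell cannot be told apart.

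On the unruptured side Osmr rose with hCG by a log2FC of 0.73 (SE 0.25, FDR = 0.0153, edgeR), and 11 of 12 libraries exceeded the median without hCG. With library totals in place of TMM scaling this difference no longer passed, at 0.52 (FDR = 0.0842, edgeR). On the ruptured side the log2FC for hCG was 0.10 (95% interval -0.64 to 0.83, FDR = 0.834, edgeR), and the test of the difference between both hCG effects did not pass (log2FC -0.63, SE 0.47, FDR = 0.449, edgeR). Transcripts of oncostatin M itself, from Osm, were close to absent, with 8, 3, 1 and 2 estimated counts summed over the 15, 14, 12 and 13 libraries.

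Il6st, which encodes the shared subunit gp130 (chr13:112464070-112510086, + strand), was lower on the ruptured side post-hCG. It lay between 7.83 and 13.8 TPM (median 10.4) on the unruptured and between 5.03 and 9.15 TPM (median 6.84) on the ruptured side. In TPM, 10 of 13 ruptured libraries fell below the lowest unruptured one (6 of 13 in CPM). The median difference of all genes between these sides was -0.21 in log2(TPM + 1). In counts the difference of Il6st was smaller, 1.30-fold, with a log2FC of -0.37 (SE 0.09, FDR = 0.00268, edgeR). Within the letter C the value was nearly the same, -0.38, with an FDR of 0.146 (edgeR). Without hCG the ranges were 4.73 to 15.4 TPM and 3.02 to 17.3 TPM, the log2FC was -0.10 (95% interval -0.35 to 0.15, FDR = 0.650, edgeR), and neither side responded to hCG past the threshold (0.04 with FDR = 0.765 on the unruptured and -0.23 with FDR = 0.116 on the ruptured side, edgeR). With library totals in place of TMM scaling the value on the ruptured side passed, at -0.56 (FDR = 0.000892, edgeR).

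Il11ra1, the receptor subunit that binds IL-11 (chr4:41699989-41769474, + strand), fell with hCG more than any other member tested. Its level lay between 3.29 and 12.2 TPM (median 5.30) and between 1.81 and 9.59 TPM (median 3.83) on the sides without hCG. Post-hCG it lay between 0.37 and 7.81 TPM (median 1.82) on the unruptured and between 0 and 2.93 TPM (median 0.56) on the ruptured side. In CPM the groups did not overlap on either side, with all 12 and all 13 libraries post-hCG below every library without hCG. In TPM, 9 of 12 and 12 of 13 did so. The share of all genes without overlap was not counted. The log2FC was -1.81 (3.51-fold, SE 0.24, FDR = 1.50e-07, edgeR) on the unruptured side, where 53.1% of all genes tested were called, and -2.93 (7.63-fold, SE 0.23, FDR = 1.32e-12, edgeR) on the ruptured side, where 60.1% were called.

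The hCG effect on Il11ra1 was more negative on the ruptured side by a log2FC of -1.13 (SE 0.37, FDR = 0.0403, edgeR), which made it the only 1 of 8 members tested to pass in that comparison, where 8.91% of all genes passed. This call was lost in 6 of 10 other fits, with FDR up to 0.494, while the direction held in all of them. Without the filter, Il11ra1 was also lower on the ruptured side post-hCG (log2FC -1.49, SE 0.37, FDR = 0.00530, edgeR) and at -0.38 without hCG (FDR = 0.0860, edgeR). Ligand and receptor of the IL-11 pair thus had opposite signs with hCG on the unruptured side, where Il11 rose and Il11ra1 fell. The values of Il11ra1 are uncertain, since the annotation overlaps it with 6 other coding genes and Il11ra2 (chr4:42656355-42661893, - strand) is a nearly identical copy. Estimated counts of Il11ra2 summed to 68.97, 37.68, 20.09 and 6.16 in the 4 groups.

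Lifr, the receptor subunit for LIF (chr15:7090614-7197489, + strand), fell with hCG on both sides. It lay between 1.21 and 11.1 TPM (median 4.13) and between 1.96 and 10.7 TPM (median 3.89) without hCG, and between 1.98 and 10.9 TPM (median 2.50) and between 1.62 and 3.66 TPM (median 2.29) post-hCG. With hCG its log2FC was -1.12 (SE 0.16, FDR = 8.53e-07, edgeR) on the unruptured and -0.79 (SE 0.14, FDR = 1.50e-05, edgeR) on the ruptured side. On the TPM scale the fall on the unruptured side was smaller and did not pass, at -0.35 in log2(TPM + 1) (FDR = 0.152, limma). That fit includes unruptured replicate 3 post-hCG, which had 10.9 TPM from 38 estimated counts. Its ratio of TPM to CPM was 0.569 against a median of 0.101, the 1 high ratio of Lifr named above. Between the sides Lifr did not pass, at -0.33 (FDR = 0.190, edgeR) without hCG and -0.01 (95% interval -0.24 to 0.22, FDR = 0.984, edgeR) post-hCG.

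Jak1, the kinase shared by the receptors of this family (chr4:101152367-101265282, - strand), fell with hCG on both sides by nearly the same amount. It lay between 36.1 and 89.3 TPM (median 56.8) and between 39.9 and 83.7 TPM (median 54.7) without hCG. Post-hCG it lay between 25.7 and 61.6 TPM (median 30.8) and between 15.5 and 36.9 TPM (median 26.6). All 13 ruptured libraries lay below every putative ruptured one in TPM, and 10 of 12 unruptured libraries lay below every putative unruptured one. In CPM the groups did not overlap on either side. CPM uses library totals, which shifted the median log2FC of all genes by -0.25 and -0.33 in these comparisons. The share of all genes without overlap was not counted. The log2FC was -0.82 (1.77-fold, SE 0.10, FDR = 1.12e-08, edgeR) on the unruptured and -0.94 (1.91-fold, SE 0.09, FDR = 1.02e-10, edgeR) on the ruptured side, and the effects differed by -0.12 (95% interval -0.36 to 0.12, FDR = 0.630, edgeR). Granulosa markers fell in these comparisons too, 7 of 9 tested on each side, where 27.7% and 30.4% of all genes were called lower. Medians of their summed level are given above, and their part in the falls of Jak1, Lifr and Il11ra1 was not tested.

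Between the sides, Jak1 was lower on the ruptured side post-hCG by a log2FC of -0.38 (SE 0.08, FDR = 0.00131, edgeR), and at -0.25 (SE 0.13, FDR = 0.290, edgeR) within the letter C. Without hCG the difference was -0.25 (SE 0.09, FDR = 0.0563, edgeR). The annotation of Jak1 overlaps Raver2. Its promoter was the only member promoter with a cyclic AMP response element, found in 1.79% of all windows and printed, with the element in capitals, because Jak1 fell with hCG on both sides:
Jak1, chr4:101265308-101265333, - strand, 101 bases before the start: agcagcttcTGACGTCAcgggggctg

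Stat3, the transcription factor that the family activates (chr11:100885098-100939540, - strand), was the most abundant member post-hCG on both sides and was lower on the ruptured side. It lay between 35.2 and 72.9 TPM (median 60.6) on the unruptured and between 20.7 and 44.6 TPM (median 33.9) on the ruptured side, with every ruptured library below the unruptured median. The log2FC was -0.49 (1.41-fold, SE 0.08, FDR = 3.65e-05, edgeR), and -0.58 within the letter C (FDR = 0.0121, edgeR). Without hCG the ranges of 29.0 to 93.3 TPM and 23.9 to 94.9 TPM overlapped nearly in full, at a log2FC of -0.20 (95% interval -0.50 to 0.11, FDR = 0.425, edgeR).

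With hCG, Stat3 fell on the ruptured side by a log2FC of -0.55 (SE 0.12, FDR = 0.000174, edgeR). On the unruptured side the value was -0.26 (SE 0.14, FDR = 0.115, edgeR), and the difference of both effects did not pass (-0.29, FDR = 0.354, edgeR). With library totals in place of TMM scaling the fall on the unruptured side passed, at -0.48 (FDR = 0.00386, edgeR). The annotation of Stat3 overlaps its neighbour Stat5a, which rose with hCG by 0.52 on the unruptured and 0.67 on the ruptured side (FDR = 0.00478 and 4.58e-06, edgeR). These values are transcript levels and do not show how much STAT3 protein was phosphorylated.

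Socs3, the feedback inhibitor that STAT3 induces (chr11:117966079-117970047, - strand), was lower on the ruptured side post-hCG. It lay between 19.5 and 42.5 TPM (median 29.1) on the unruptured and between 7.93 and 20.3 TPM (median 12.0) on the ruptured side, and 12 of 13 ruptured libraries fell below the lowest unruptured one. The difference was 1.95-fold, with a log2FC of -0.97 (SE 0.12, FDR = 8.65e-07, edgeR), and -0.95 within the letter C (FDR = 0.000440, edgeR). Without hCG, levels spread from 7.66 to 61.6 TPM (median 19.9) and from 4.90 to 33.7 TPM (median 12.0), with a log2FC of -0.41 (FDR = 0.377, edgeR) and of 0.26 within the letter G (FDR = 0.876, edgeR).

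For hCG, the log2FC of Socs3 was 0.36 (95% interval -0.09 to 0.82, FDR = 0.186, edgeR) on the unruptured and -0.18 (95% interval -0.65 to 0.28, FDR = 0.522, edgeR) on the ruptured side, and their difference of -0.55 did not pass (FDR = 0.355, edgeR). Without putative unruptured replicate 5, which held 10.6% of the Socs3 counts compared, the rise on the unruptured side passed, at 0.55 (FDR = 0.0227, edgeR). Socs3 had the only STAT site among the 13 member windows, against 8.30% of all windows. It is shown, with the site in capitals, because Socs3 is the textbook target of STAT3 in this set:
Socs3, chr11:117969503-117969529, - strand, 154 bases before the start: aaaccagccTTCTTAGAAgggaggggg

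Set side by side, more members passed between the sides post-hCG than between the sides without hCG. Of 7 members tested there, 5 were higher on the unruptured side (Osmr, Socs3, Stat3, Jak1 and Il6st) and none on the ruptured side, in a comparison that called 11.3% of genes higher on the unruptured side. None of these 5 passed the test of the difference between both hCG effects. A change of their side differences with hCG was therefore not shown. The median log2FC of the 7 was -0.38, against 0.01 for all genes tested. The study had reported Jak1, Stat3 and Il11 as higher on the unruptured side post-hCG in the same data. The members were chosen with earlier results known, so these counts only describe the set. Within the letter C, 4 of the 7 were called, Il6 in place of Jak1 and Il6st. Of 9004 genes tested there, 294 were called higher and 454 lower on the ruptured side.

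With hCG, 4 of 7 members passed on each side. On the unruptured side Il11ra1, Lifr and Jak1 fell and Osmr rose, and the median log2FC was -0.26 against -0.03 for all genes, of which 27.7% were called lower and 25.4% higher. On the ruptured side Il11ra1, Jak1, Lifr and Stat3 fell, and the median was -0.55 against -0.001 for all genes, of which 30.4% were called lower and 29.7% higher. The shares of members called on both sides, 4 of 7, stood near the shares of all genes called, 53.1% and 60.1%. The 2 comparisons of media share no library, but the comparisons of sides and of media share their control libraries.

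**Figure D4:**
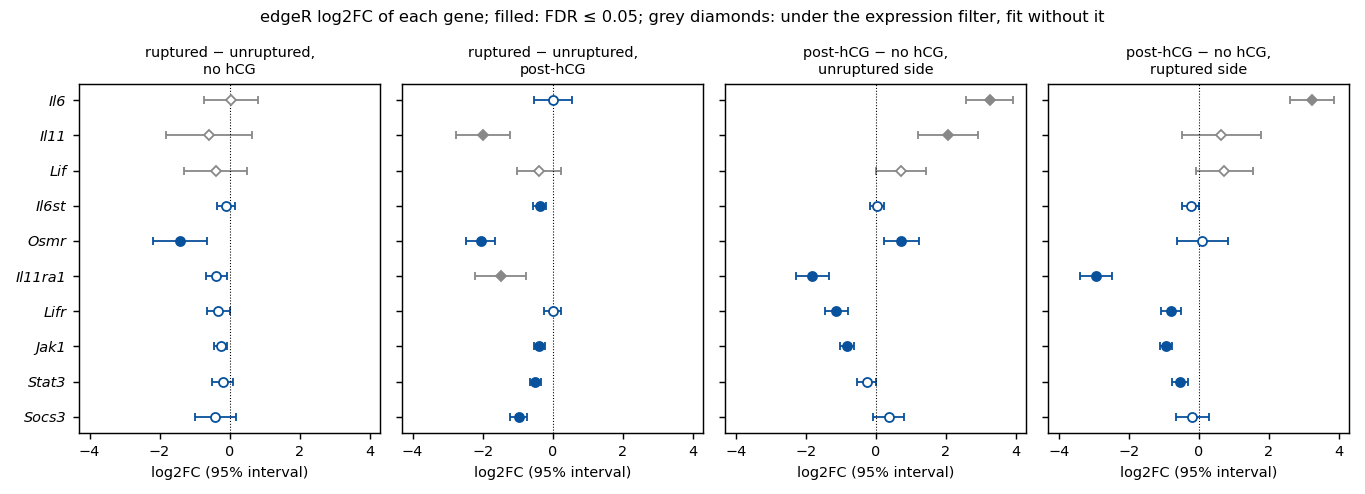
edgeR log2FC (horizontal axis, with 95% intervals) of the 10 genes (vertical axis) in the 4 comparisons of sides and media. Blue points come from the fit with the expression filter and are filled at an FDR of at most 0.05, and grey diamonds are genes under the filter, fitted without it. Post-hCG most members lie left of 0, toward the unruptured side, and Il6 lies near 3 in both comparisons of media.

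The other 46 genes of the pathway were listed by role. Between the sides without hCG, 7 of 24 tested passed, 2 higher and 5 lower on the putative ruptured side, where 8.84% of all genes were called higher and 8.96% lower. Post-hCG 6 of 24 passed, 3 in each direction. With hCG, 17 of 27 passed on the unruptured side, 10 higher and 7 lower, and 19 of 24 on the ruptured side, 10 higher and 9 lower, in comparisons that called 53.1% and 60.1% of all genes. The difference of both hCG effects passed for 4 of 28, 2 in each direction, against 4.25% of all genes with a more positive and 4.65% with a more negative effect on the ruptured side.

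Among the other 9 ligands, only Clcf1 was abundant enough to be tested for hCG. CLCF1 signals through CNTFR, LIFR and gp130. Its median level rose from 3.99 to 14.7 TPM on the unruptured and from 1.79 to 10.1 TPM on the ruptured side. The rise in log2FC was 1.34 on the former (SE 0.20, FDR = 8.60e-07, edgeR) and 2.11 on the latter (SE 0.25, FDR = 7.44e-09, edgeR). It was lower on the putative ruptured side without hCG, at -0.85 (FDR = 0.0395, edgeR), but at -0.02 within the letter G. Its range post-hCG of 6.66 to 23.1 TPM on the unruptured side lay above that of Il11 in every library.

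Of the other receptors, Il6ra, the subunit that gives a cell its own response to IL-6, was the one that could be tested for hCG. Its median level was 2.02, 1.69, 1.43 and 0.94 TPM in the 4 groups. It fell with hCG by a log2FC of -0.82 (SE 0.22, FDR = 0.00240, edgeR) on the unruptured and -0.87 (SE 0.19, FDR = 0.000256, edgeR) on the ruptured side. The ligand Il6 and its receptor subunit thus moved in opposite directions with hCG on both sides.

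Among kinases and STATs, Jak2, the kinase that also serves growth hormone and prolactin receptors, fell with hCG on the unruptured side, at -1.52 (SE 0.26, FDR = 1.16e-05, edgeR), and was lower on the putative ruptured side at -0.69 (FDR = 0.0346, edgeR), with -0.13 within the letter G. Its levels were low throughout, at or below 1.34 TPM in every library. Stat5b was higher on the ruptured side post-hCG at 0.46 (FDR = 0.000865, edgeR), a difference that on the TPM scale was 0.03 (FDR = 0.887, limma). Of all 8 kinases and STATs, 3 rose and 3 fell with hCG on the ruptured side among 7 tested, where 29.7% of all genes rose and 30.4% fell.

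Among the pathway genes past the filter, an inhibitor had the largest rise with hCG. Cish, a cytokine-inducible inhibitor that STAT5 is known to induce, rose with hCG by a log2FC of 2.75 (6.71-fold, SE 0.20, FDR = 4.42e-13, edgeR) on the unruptured and 3.82 (14.1-fold, SE 0.26, FDR = 3.31e-14, edgeR) on the ruptured side. Its median level was 0.77, 0.51, 5.35 and 7.29 TPM in the 4 groups, and it was higher on the ruptured side post-hCG at 0.75 (FDR = 0.00126, edgeR), though not within the letter C (0.72, FDR = 0.0653, edgeR).

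Socs2, a related inhibitor known for restraining growth hormone signaling, went the other way with hCG. Its median level was 93.6, 265, 30.7 and 43.0 TPM in the 4 groups. It fell by -1.70 (SE 0.15, FDR = 2.42e-11, edgeR) on the unruptured and -2.35 (SE 0.19, FDR = 1.13e-12, edgeR) on the ruptured side. It was higher on the ruptured side both without hCG, at 1.43 (SE 0.18, FDR = 2.29e-06, edgeR), and post-hCG, at 0.76 (SE 0.13, FDR = 4.44e-05, edgeR), a call that was lost within the letter C (0.53, FDR = 0.0832, edgeR), as was that without hCG within the letter G (0.95, FDR = 0.298, edgeR). Post-hCG, Socs2 and Socs3 thus differed in opposite directions between the sides. A STAT site stood in 6 of the 60 windows of all listed pathway genes, members included, against 8.30% of all windows. The genes were Cish, Socs3, Fgl2, Il31ra and Bcl6. Cish held a pair of STAT sites around its start, printed because Cish rose on both sides, with the site in capitals:
Cish, chr9:107296650-107296676, + strand, at the start: cgcccagttTTCCTGGAAagttcttgg
Cish, chr9:107296661-107296687, + strand, 11 bases after the start: cctggaaagTTCTTGGAAatctgtcaa

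The genes listed as STAT3 targets did not move as 1 group. With hCG, 6 of 13 tested rose and 2 fell on the unruptured side, and 5 of 11 rose and 3 fell on the ruptured side. Of all genes tested, 25.4% rose and 27.7% fell on the former and 29.7% and 30.4% on the latter. Timp1, an inhibitor of matrix metalloproteinases, rose by 2.06 (SE 0.27, FDR = 9.07e-08, edgeR) and 3.02 (SE 0.33, FDR = 1.77e-09, edgeR), to medians of 2993 TPM on the unruptured and 1753 TPM on the ruptured side. Myc, a growth regulator, rose by 1.17 on the ruptured side (FDR = 2.94e-09, edgeR), where its groups had medians of 24.4 and 54.4 TPM. Fgl2, a fibrinogen-like protein, rose on the unruptured side, the only one where it could be tested, at 2.32 (SE 0.41, FDR = 1.58e-05, edgeR), with 8 to 158 estimated counts per library against 0 to 7 on the ruptured side post-hCG.

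Other listed targets fell with hCG. Ier3, an immediate early gene, fell by -1.35 (FDR = 6.05e-06, edgeR) on the unruptured and -2.09 (FDR = 1.21e-08, edgeR) on the ruptured side, and Cebpd, a transcription factor of the acute-phase response, by -1.66 (FDR = 3.66e-05, edgeR) and -1.08 (FDR = 0.00892, edgeR). Between the sides post-hCG, 3 of 11 tested were lower on the ruptured side and none higher. These were Ier3 (-0.67, FDR = 0.000227), Bcl3 (-0.62, FDR = 0.0493) and Timp1 (-0.57, FDR = 0.000819, all edgeR). With all 4 groups in 1 fit none of the 3 passed, at FDR = 0.0555, 0.170 and 0.220 (edgeR). Without hCG, Timp1 (-1.54, FDR = 0.00410) and Cebpd (-1.14, FDR = 0.0234) were lower and Hif1a (1.29, FDR = 1.54e-05) was higher on the putative ruptured side (edgeR). Within the letter G none of these 3 passed, and Cebpd stood at 0.09.

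**Figure D5:**
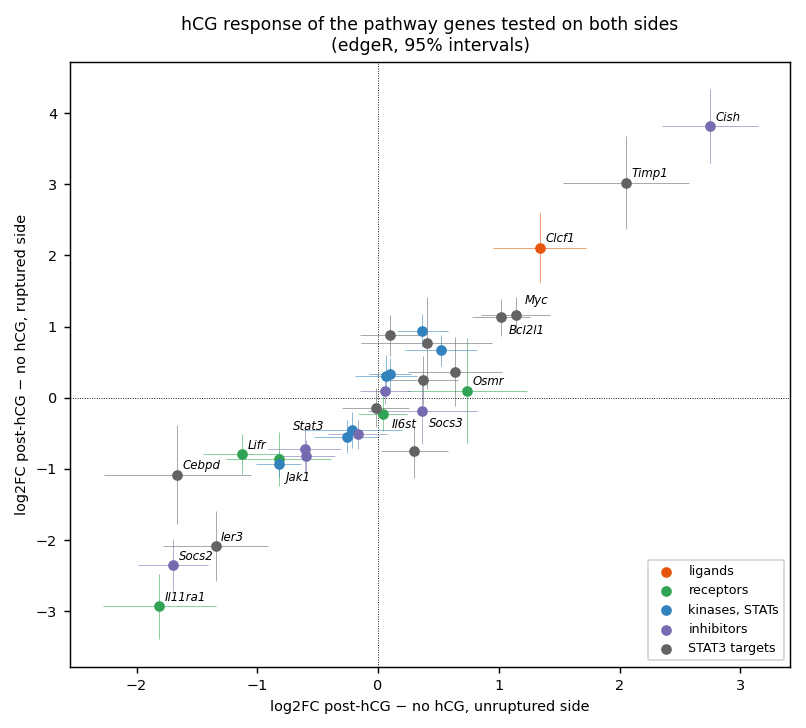
edgeR log2FC for hCG on the ruptured side (vertical axis) against that on the unruptured side (horizontal axis) for the pathway genes tested on both sides, coloured by role, with 95% intervals. Cish, Timp1 and Clcf1 lie at the upper right, having risen on both sides, and Il11ra1, Socs2 and Ier3 lie at the lower left, having fallen on both.

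Across the 54 libraries, with each group's mean removed, the genes whose log2(TPM + 1) varied most like the members were sought among 9888 genes whose mean over all libraries reached 1 TPM. Il6 varied most like Ereg, the EGF family ligand epiregulin (Pearson's r = 0.639), then Sat1 (0.635) and Rap1a (0.601). Osmr varied most like Il13ra1 (0.762), Msn (0.759) and Sfxn1 (0.736), Stat3 like Pakap (0.850), Tnfrsf1a (0.825) and Frmd5 (0.808), and Socs3 like Sbno2 (0.808), Bhlhe40 (0.793) and Stat3 (0.750). The likeness was weaker for Il11, with Adamts3 first (0.549), and is not given for Lif, whose TPM did not follow its counts in 5 libraries. All points share their libraries' depth and composition, so these values are descriptions.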

How the data were processed

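Per the labels and methods, the authors amplified RNA of single follicle sides with Smart-Seq2, sequenced Nextera XT libraries and aligned the reads to GRCm38. They deposited estimated counts and TPM for 25149 genes. The counting program, and whether batch correction preceded deposition, are not given in the sources used here. TPM summed to 585982 to 678417 per library.

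The 10 genes and all lists were chosen with earlier results of these data known. Deposited estimated counts, 72.2% of them whole, were rounded, filtered with edgeR's filterByExpr (count of at least 10, total of at least 15), given TMM scaling and compared in edgeR 4.0.16 (quasi-likelihood, R 4.3.3, FDR 0.05 over all genes) in 5 comparisons. Log2FC is ruptured minus unruptured, or post-hCG minus no hCG. Members under the filter were fitted without it. Named other genes are, per comparison, up to 4 in each direction with the largest log2FC past the FDR. Alternatives used RLE, library totals, no filter, a mean of 20 counts, DESeq2 1.42.0, limma 3.58.1 on log2(TPM + 1) or log2(TPM + 0.1), thinning, a replicate block, 1 fit of all groups, 1 label letter, and single libraries left out. Leaving out both libraries with over 10 TPM of oocyte transcripts was added after seeing the data. Scripts were tested on simulated data. Gene positions are those of GENCODE (GRCm38), and promoters from RefSeq (GRCm38.p6). No 2 libraries of a group agreed within sampling noise. Intervals cover counting and library spread together. Endothelial, smooth muscle and surface epithelium markers had median sums of at most 3.52, 33.3 and 0.52 TPM in any group.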

Additional observations from a re-analysis of the deposited data

Results flagged for a closer look

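For 5 genes of the pathway, the effect of hCG differed between the sides by a test of the difference itself (ruptured minus unruptured, edgeR). Il11ra1 had a difference of -1.13 in log2FC (FDR = 0.0403). Fgl2, which could be tested for hCG alone only on the unruptured side, had -3.43 (SE 0.84, FDR = 0.00550), and Hif1a, a hypoxia-responsive factor, had -1.06 (SE 0.24, FDR = 0.00301), falling by 0.75 with hCG on the ruptured side. Mcl1, an anti-apoptotic gene, had 0.77 (SE 0.19, FDR = 0.00623) and Stat5b had 0.57 (SE 0.16, FDR = 0.0146). On the TPM scale the values for Mcl1 and Stat5b were 0.21 (FDR = 0.557) and -0.01 (FDR = 0.984) by limma. Without hCG these libraries had the letters F, G and H and post-hCG B, C and D, so the medium cannot be told apart from the letter.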

How the results depend on the processing

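Of 855 repeated results, 717 named gene values kept their direction and their side of the threshold. Another 52 results were counts that stayed within 1.5 times of the original count, whichever members they held. The 1 member called between the sides without hCG became 2 with library totals, a mean of 20 counts, DESeq2 and all 4 groups in 1 fit (Jak1 added), and 0 within the letter G. The 1 member with differing hCG effects became 0 without a filter, with a mean of 20 counts, by limma with either pseudocount, with thinning, with the replicate block and without the libraries holding oocyte transcripts, and 1 to 4 of 6 to 10 members then had an unadjusted p under 0.05, or 0 with the mean of 20 counts. DESeq2 called 1. Counts of members called in the other 3 comparisons moved by no more than 1.5 times.

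Values that changed sign were mostly near 0 (log2FC). Without hCG these were Il6st 0.17, Stat3 0.13, Socs3 0.26 and Cebpd 0.088 within the letter G, and Lifr 0.01 by limma with either pseudocount (0.0074 and 0.0111). Between the sides post-hCG they were Il6 at -0.14 (library totals), -0.074 and -0.083 (limma), -0.020 (replicate block) and -1.04 (letter C), and Lifr at 0.0048 (no filter), 0.081 (thinned), 0.021 (replicate block), 0.0033 (1 fit) and 0.029 (without its top library). With library totals, Il6st for hCG on the unruptured side was -0.18 and Osmr on the ruptured side -0.27. For the difference of hCG effects they were Il6 0.060 (without its top library), Lifr -0.26 and -0.34, and Stat5b -0.010 and -0.0058 (limma). The cause was not tested.

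Same-numbered libraries were little alike beyond their groups, with mean correlations from -0.01 to 0.04, and at most 2 pairs per comparison exceeded 0.1. Libraries of different media cannot share a follicle. The 2 sides of 1 follicle need not vary alike, so these values cannot show whether the numbers pair the sides. With the replicate block, Cebpd without hCG was lost (-1.19, FDR = 0.0688, edgeR), and Stat3 (-0.34) and Socs3 (0.47) passed for hCG on the unruptured side.

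Library totals shifted the median of all genes by -0.14 post-hCG between sides, -0.25 and -0.33 for hCG on the unruptured and ruptured side and -0.11 for the difference. Higher and lower calls changed from 862 and 971 to 397 and 1830, from 2365 and 2582 to 1455 and 3844, from 2532 and 2597 to 1376 and 4242, and from 426 and 466 to 230 and 660. Without hCG they changed from 801 and 812 to 585 and 905. Limma on log2(TPM + 1) gave 214 and 2166 between the sides post-hCG, 2207 and 1623 and 1568 and 3005 for hCG, and 85 and 679 for the difference. Few counts limit the ligands and Il11ra1 post-hCG.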
